A study of Homo sapiens with 6 samples.

Results

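The clustered protocadherins are cadherin-like adhesion proteins encoded in 3 neighbouring gene arrays, alpha, beta and gamma, on chromosome 5. All count table rows were taken whose symbol begins with PCDHAC, or with PCDHA, PCDHB, PCDHGA, PCDHGB or PCDHGC and a number, pseudogenes included. PCDHAC and PCDHGC mark the C-type members. This gave 50 of the 16199 rows. The alpha array had 14 rows, the beta array 14 rows including the pseudogenes PCDHB17P and PCDHB18P, and the gamma array 22 rows including the pseudogene PCDHGB8P. PCDHA8, PCDHA14, PCDHB1, PCDHB7, PCDHB8, PCDHB11, PCDHB19P, PCDHGA3 and PCDHGB9P have no row and were not analysed here.

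The study sequenced RNA fragments crosslinked to Argonaute 2 (Ago2), the protein that carries microRNAs to their targets, by iCLIP. The cells were H1, an established human embryonic stem cell line, with Dicer either wild-type or carrying the S1344L substitution, which the study names a cancer hotspot mutation of this microRNA-processing enzyme. The 3 genotypes were wild-type, S1344L hemizygous and S1344L homozygous, the mutants made with CRISPR-Cas9, and each had 2 libraries. The protocol names the genotypes wildtype, pm/fs and pm/pm and does not spell these out. All 6 libraries, wild-type included, came from cells kept for 10 days without doxycycline, irradiated 2 times with 150 mJ/cm2 of ultraviolet light and precipitated with an anti-Ago2 antibody, from 2 dishes per sample. Neither the number of clones per genotype nor the use of separate cultures is stated. A p-value here therefore sets a difference against the spread of the sequenced libraries alone, and that spread may be technical. A count per gene does not read the S1344L substitution, so it cannot check the genotype labels.

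Each alpha and gamma gene begins with its own promoter and a variable exon, which is spliced to constant exons shared by its whole array, whereas beta genes are single-exon genes without a constant part. In neurons, CTCF and cohesin take part in choosing which of these promoters are active, and the resulting combination of proteins lets a neuron tell its own branches from those of others. The C-type members at the downstream ends of the alpha and gamma arrays differ more in sequence and are regulated apart from the rest. In iCLIP a count per gene depends both on how much of its RNA is present and on how much of it Ago2 holds, and these libraries cannot tell the 2 apart.

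In RefSeq GRCh38.p14 the alpha rows lie at chr5:140786140-141012347, the beta rows at chr5:141094615-141249365 and the gamma rows at chr5:141330514-141512975, all in the same direction. All 14 alpha rows share 1 annotated end and all 21 coding gamma rows share another, because their transcripts run into the shared constant exons. How the authors assigned fragments of those exons to single rows is not given in the sources used here. The smallest count in any library was 29 among alpha rows and 19 among gamma rows, so no more than that many counts can have been added alike to every row of an array in that library. Fragments that match several near-identical copies make each row's value uncertain to an unknown degree.

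The promoters show letters shared within and between the arrays. RefSeq promoters of 300 bases, from 250 before to 50 after the gene start, matched 41 of the 50 rows by symbol and start. The letters CGCT, the core of the conserved sequence element known from these promoters, were searched on the gene's own strand. They lay within the 100 bases before the start in 40 of the 41 promoters, against 28.1% of the 35116 promoters in the table, with PCDHA9 the exception. These are counts of the letters alone, and the whole element was not searched. The windows below show 44 bases with each CGCT in capitals, all on the plus strand and all ending before the gene start. The first 4 are gamma genes that stand side by side and whose values are described below, PCDHGC3 is a C-type gamma gene, and the rest are alpha and beta genes named below. The PCDHGB3 promoter holds CGCT 2 times, and its window shows the copy nearer the start, at -26. Which copy belongs to the conserved element was not determined, so this window may not line up with the others.
PCDHGA5 at chr5:141364103-141364146: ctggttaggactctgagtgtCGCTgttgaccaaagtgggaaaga
PCDHGB3 at chr5:141370196-141370239: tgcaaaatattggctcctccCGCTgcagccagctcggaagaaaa
PCDHGA6 at chr5:141373831-141373874: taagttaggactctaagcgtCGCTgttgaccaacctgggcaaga
PCDHGA7 at chr5:141382645-141382688: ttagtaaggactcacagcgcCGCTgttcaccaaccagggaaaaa
PCDHGC3 at chr5:141475876-141475919: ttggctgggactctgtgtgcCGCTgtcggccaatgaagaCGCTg
PCDHA2 at chr5:140794777-140794820: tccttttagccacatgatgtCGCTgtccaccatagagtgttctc
PCDHA10 at chr5:140855837-140855880: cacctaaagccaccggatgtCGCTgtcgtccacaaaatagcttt
PCDHB2 at chr5:141094540-141094583: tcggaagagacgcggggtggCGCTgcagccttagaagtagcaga
PCDHB9 at chr5:141187070-141187113: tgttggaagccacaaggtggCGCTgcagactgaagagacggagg
PCDHB10 at chr5:141192295-141192338: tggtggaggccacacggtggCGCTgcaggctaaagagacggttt

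The letters around CGCT differed between the arrays. For each array the word of 7 letters containing CGCT that most of its promoters held was found, so these words were chosen from the promoters they describe. TGTCGCT stood in 9 of 12 alpha, 1 of 11 beta and 2 of 18 gamma promoters, and in 0.977% of all promoters of the table. TGGCGCT stood in 11 of 11 beta, 0 of 12 alpha and 3 of 18 gamma promoters, and in 2.21% of all. GCCGCTG stood in 12 of 18 gamma promoters and in no alpha or beta promoter, and in 5.7% of all. Of the 4 adjacent gamma genes printed first, PCDHGA7 held GCCGCTG and the others did not. The letters CCCTC, 1 spelled-out part of the CTCF motif, were searched on both strands of the 300 bases. They were found in 3 of 12 alpha, 0 of 11 beta and 8 of 18 gamma promoters, and in 71.2% of all promoters. Other forms of the CTCF motif were not searched, so these counts do not say which promoters CTCF can bind. A match of letters is a description and not a binding site.

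The libraries held 38164848 to 52924532 counts, of which the 50 rows took between 0.0255% and 0.0337%. Values are given as CPM, a row's counts scaled to a common library total, after TMM scaling, which corrects for differences in composition between libraries. Of the marker lists, all 12 pluripotent stem cell genes were present in each library, at a summed 10416 to 12413 CPM. Of 14 neural genes 10 had a row, at 208 and 166 CPM summed in wild-type cells, 270 and 244 in hemizygous and 225 and 202 in homozygous libraries, and PAX6, SOX1, ELAVL4 and SIX3 had none. Of 12 fibroblast and stroma genes 8 had a row, at 662 to 906 CPM summed, and of 9 mesendoderm genes only MIXL1 did. THY1 alone stood at 333 to 468 CPM within the stroma sum.

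All 3 arrays had counts in these libraries, with every row counted in every library. The table held no row that edgeR's filter for low counts removed, and array genes without a row are not covered. Mean CPM per row over the 6 libraries ran from 0.881 to 11.6 in alpha (median 4.22), from 0.766 to 42.2 in beta (median 2.82) and from 0.747 to 15.8 in gamma (median 2.14). Counts were concentrated in a few rows. PCDHB5, PCDHB2 and PCDHB3 held 69.4% of beta counts, PCDHA10, PCDHAC2 and PCDHA6 held 42.8% of alpha counts, and PCDHGC3, PCDHGA11 and PCDHGA10 held 41.5% of gamma counts.

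**Figure D1:**
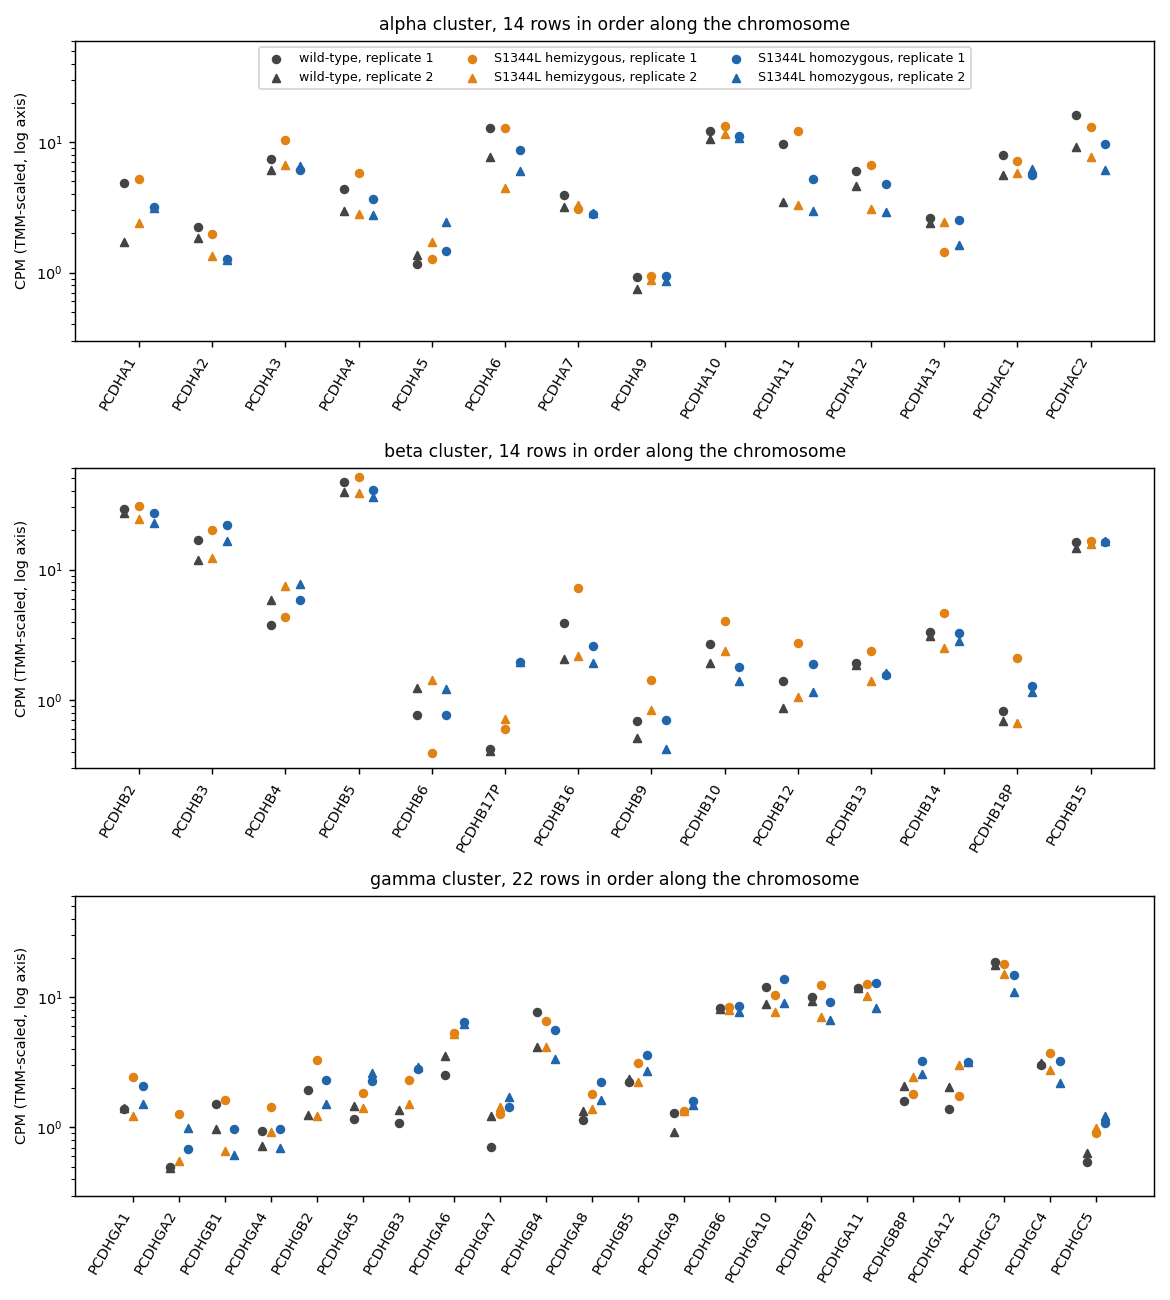
Level of each of the 50 rows in each library, as TMM-scaled CPM on a log axis, with rows in order along chromosome 5; colours are genotypes, circles replicate 1 and triangles replicate 2. PCDHB17P in the homozygous libraries (1.96 and 1.94 CPM) lay above the other 4 libraries, and replicate 1 lay above replicate 2 in many alpha and beta rows.

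The row with the most counts in the beta array was PCDHB5, at 46.6 and 39.3 CPM in wild-type cells, 51.7 and 38.9 in hemizygous and 40.7 and 36.1 in homozygous libraries. The 3 genotypes overlapped. Since beta genes are not spliced to a shared part, their levels could be set against each other per kilobase of the RefSeq gene. On that scale PCDHB5 stood at a mean of 12.4 CPM per kb over all libraries, followed by PCDHB2 at 6.57, PCDHB3 at 4.95 and PCDHB15 at 4.03, and the other 10 rows lay at or below 1.53. The lowest was PCDHB9 at 0.175 CPM per kb. The pseudogene PCDHB17P stood at 0.127 CPM per kb in wild-type cells, 0.201 in hemizygous and 0.595 in homozygous cells. Of the 4 leading beta rows, PCDHB2, PCDHB3 and PCDHB5 lie at the upstream end of the array and PCDHB15 at its downstream end.

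In the alpha array PCDHA10 stood at 12.2 and 10.6 CPM in wild-type cells, 13.4 and 11.6 in hemizygous and 11.1 and 10.8 in homozygous libraries, and the genotypes overlapped between wild-type and each mutant. The C-type row PCDHAC2 stood at 16.2 and 9.24, 13.1 and 7.76, and 9.74 and 6.15 CPM in the same order. Its homozygous values overlapped those of both other genotypes, and its log2 fold change in homozygous against wild-type cells was -0.68 (SE 0.39). PCDHAC1, the other C-type alpha row, stood at 7.91 and 5.63, 7.12 and 5.85, and 5.57 and 6.28 CPM, with overlapping genotypes.

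In the gamma array the C-type row PCDHGC3 had the most counts. It stood at 18.7 and 17.7 CPM in wild-type cells, 17.9 and 15.0 in hemizygous and 14.7 and 11.0 in homozygous libraries. Both homozygous libraries lay below all 4 others. PCDHGC4 stood at 3.01 and 3.15, 3.75 and 2.75, and 3.24 and 2.19 CPM, and its genotypes overlapped. PCDHGC5 stood at 0.540 and 0.640 CPM in wild-type cells, 0.913 and 0.987 in hemizygous and 1.08 and 1.23 in homozygous libraries, an order without overlap from wild-type to homozygous. PCDHGC5 thus stood above and PCDHGC3 below wild-type in homozygous cells.

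Summed over rows, the arrays differed between genotype means by less than the widest gap between 2 libraries of a genotype. Alpha rows summed to 77.1 ± 21.8 CPM in wild-type cells, 76.6 ± 27.0 in hemizygous and 61.9 ± 7.34 in homozygous cells (SD, n = 2 each). Beta rows summed to 120 ± 12.3, 131 ± 26.5 and 120 ± 9.99 CPM, and gamma rows to 88.0 ± 4.73, 91.9 ± 16.2 and 91.2 ± 16.1 CPM, with SD and n as before. With 2 libraries against 2 the smallest two-sided exact permutation p is 0.33, so no test was made on the sums.

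**Figure D2:**
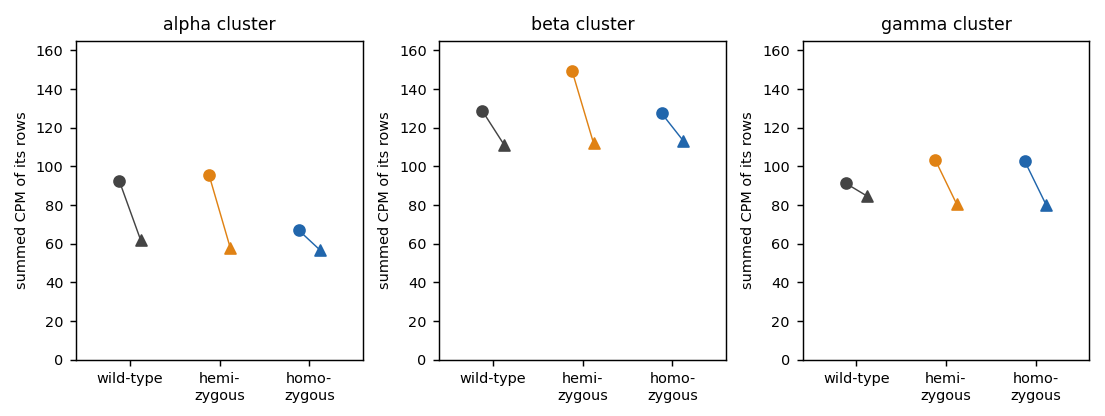
Summed CPM of the rows of each array, one point per library, circles for replicate 1 and triangles for replicate 2, joined within a genotype. In all 3 arrays and all 3 genotypes replicate 1 lay above replicate 2, for alpha from 67.0 to 95.7 CPM in replicate 1 and from 56.7 to 61.7 CPM in replicate 2.

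Many of these rows differed between replicate 1 and replicate 2 in the same direction in every genotype. The log2 gap (replicate 1 minus replicate 2) had a median over alpha rows of 0.34 in wild-type cells, 0.60 in hemizygous and 0.09 in homozygous cells. The beta medians were 0.20, 0.73 and 0.18, and the gamma medians -0.00, 0.40 and 0.40. Replicate 1 was the higher library in all 3 genotypes for 9 of 14 alpha, 9 of 14 beta and 10 of 22 gamma rows, against 29.9% of all rows. The comparisons below are therefore also given with replicate number as a block.

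The row with the widest gap was PCDHA11, at 9.76 and 3.50 CPM in wild-type cells, 12.3 and 3.28 in hemizygous and 5.24 and 2.98 in homozygous libraries. All replicate 1 values lay above all replicate 2 values. PCDHB16 had gaps of 0.90, 1.71 and 0.42 on the log2 scale, and PCDHA6 of 0.73, 1.52 and 0.52. A few rows went the other way. PCDHB6 had gaps of -0.64, -1.75 and -0.62, PCDHB4 of -0.62, -0.78 and -0.40, and PCDHA5 of -0.22, -0.42 and -0.73.

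**Figure D3:**
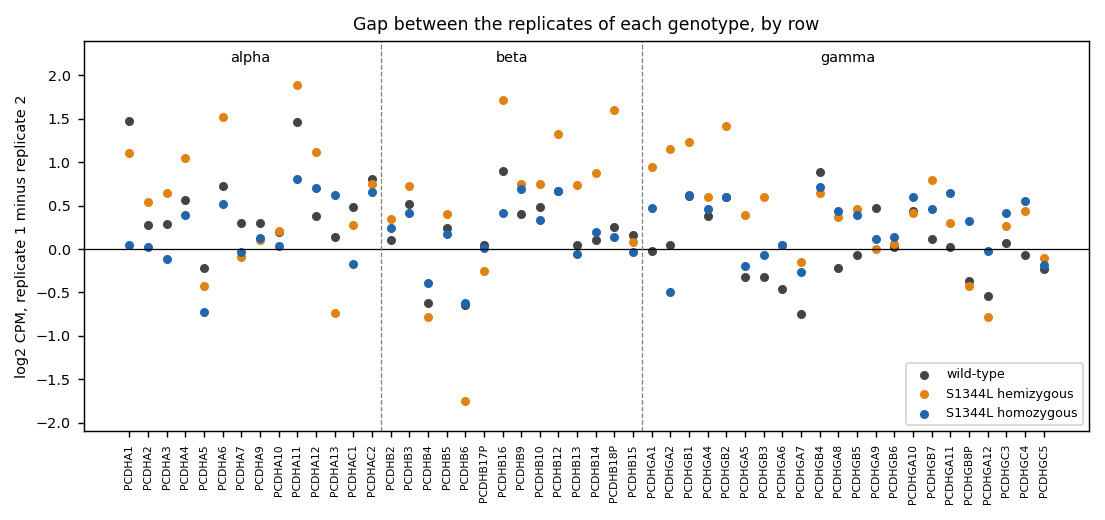
Difference in log2 CPM between replicate 1 and replicate 2 for each row, in order along chromosome 5, with 1 point per genotype and the line at 0 marking no difference. PCDHA11 and PCDHB16 lie above 0 in all 3 genotypes, and PCDHB6 and PCDHB4 below.

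The comparison of hemizygous with wild-type cells asked whether hemizygous S1344L goes with a difference in the Ago2-bound counts of these genes. Gamma and beta rows stood above wild-type more often than below, and 7 of 14 alpha rows stood above. The 3 rows above wild-type with the smallest p and no overlap were PCDHGA6, PCDHGC5 and the pseudogene PCDHB17P, at log2 fold changes of 0.79, 0.69 and 0.67. No row passed edgeR's quasi-likelihood test at a Benjamini-Hochberg adjusted p of 0.05 over all 16199 rows (background 0%), in either direction. At an unadjusted p under 0.05 there was 1 member above wild-type, PCDHGA6, against a background of 0.457% of all rows, and 0 below, against 0.414%. DESeq2 and limma-voom called 0 members, and 7 and 0 of all rows. With replicate number as a block, 4 members lay above at an unadjusted p under 0.05 (background 2.05%) and 0 below (1.75%), and still 0 members passed. The log2 fold change of PCDHGA6 ran from 0.58 to 1.06 as each library was left out.

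In 9 members both hemizygous libraries lay above both wild-type libraries (background 8.13%), 7 of them gamma and 2 beta rows, and in 0 members below (background 9.21%). PCDHGA6, an A-type gamma gene, stood at 2.55 and 3.53 CPM in wild-type and at 5.35 and 5.16 in hemizygous libraries, which gave 0.79 on the log2 fold scale (SE 0.24, unadjusted p 0.0150, edgeR adjusted p 1.00). The hemizygous values lay above and close together. PCDHGC5, given above, had a log2 fold change of 0.69 (SE 0.31, unadjusted p 0.0613), and the pseudogene PCDHB17P of 0.67 (SE 0.32, unadjusted p 0.0747). The remaining 6 rows without overlap were PCDHB9, PCDHGA2, PCDHGB3, PCDHGA7, PCDHGA8 and PCDHGA9, with log2 fold changes from 0.26 to 0.89.

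By array, the median log2 fold change in hemizygous against wild-type cells was 0.02 in alpha (7 of 14 rows above 0), 0.24 in beta (11 of 14) and 0.29 in gamma (16 of 22), beside -0.00 for all rows of the table (49.1% above 0). The gamma median was 0.39 between the replicate 1 libraries and 0.00 between the replicate 2 libraries, and the beta medians were 0.38 and 0.08. Without hemizygous replicate 1 the gamma median was 0.05 and the beta median -0.12, with 6 of 14 beta rows above 0. As each of the wild-type and hemizygous libraries was left out, the alpha median ran from -0.30 to 0.19 and the number of alpha rows above 0 from 3 to 11.

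In homozygous cells several gamma rows and the pseudogene PCDHB17P stood above wild-type, and most alpha rows and the C-type gamma row PCDHGC3 stood below. The smallest p belonged to PCDHB17P, at a log2 fold change of 2.22, PCDHGA6 at 1.06 and PCDHGB3 at 1.24. As in hemizygous cells, the comparison gave 0 members past edgeR's adjusted p of 0.05 (background 0%). At an unadjusted p under 0.05 there were 6 members above wild-type, PCDHB17P, PCDHGA5, PCDHGB3, PCDHGA6, PCDHGA12 and PCDHGC5, against a background of 1.19% of rows, and 1 below, PCDHGC3, against 1.50%. Limma-voom called 0 members, and DESeq2 called 1, PCDHB17P, at an adjusted p of 0.0242. Over all rows of the table limma-voom called 0 and DESeq2 called 10. With the replicate block 12 members lay above (background 5.21%) and 3 below (6.78%) at an unadjusted p under 0.05, and 0 passed. The 15 were the 7 just named with PCDHA5, PCDHB3, PCDHB4, PCDHGA7, PCDHGA8 and PCDHGB8P above and PCDHA2 and PCDHAC2 below. As each library was left out, the log2 fold change of PCDHGA6 ran from 0.85 to 1.32 and that of PCDHGB3 from 1.08 to 1.42.

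PCDHB17P, a beta pseudogene between PCDHB6 and PCDHB16, stood furthest from wild-type. It had 22 and 16 counts in wild-type cells, 23 and 38 in hemizygous and 89 and 79 in homozygous libraries. The exact 95% Poisson intervals, which cover counting error only, were 13.8 to 33.3 and 9.15 to 26.0 for wild-type and 71.5 to 109.5 and 62.5 to 98.5 for homozygous libraries. In CPM it stood at 0.424 and 0.409, then 0.600 and 0.721, then 1.96 and 1.94, so the genotypes did not overlap and both homozygous libraries lay above the 4 others. The log2 fold change was 2.22 (SE 0.30, unadjusted p 0.000212, edgeR adjusted p 1.00) in homozygous against wild-type cells. Leaving out each library in turn gave 2.21 to 2.25, and edgeR with the replicate block gave 2.22 (SE 0.27, adjusted p 0.274). Its share of the beta counts was 0.330% and 0.368% in wild-type cells, 0.401% and 0.644% in hemizygous and 1.54% and 1.72% in homozygous libraries. The nearest coding genes with a row on either side, PCDHB6 and PCDHB16, lay at -0.01 (SE 0.61) and -0.42 (SE 0.59) in the same comparison. Beta genes without a row may lie nearer.

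The other pseudogenes stood nearer to wild-type. PCDHB18P stood at 0.829 and 0.691 CPM in wild-type cells, 2.11 and 0.664 in hemizygous and 1.28 and 1.16 in homozygous libraries. Its homozygous values lay above wild-type, and the hemizygous pair enclosed all the others. PCDHGB8P stood at 1.60 and 2.07, 1.80 and 2.43, and 3.24 and 2.58 CPM, the homozygous values above the other 4, with a log2 fold change of 0.67 (SE 0.30) against wild-type.

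**Figure D4:**
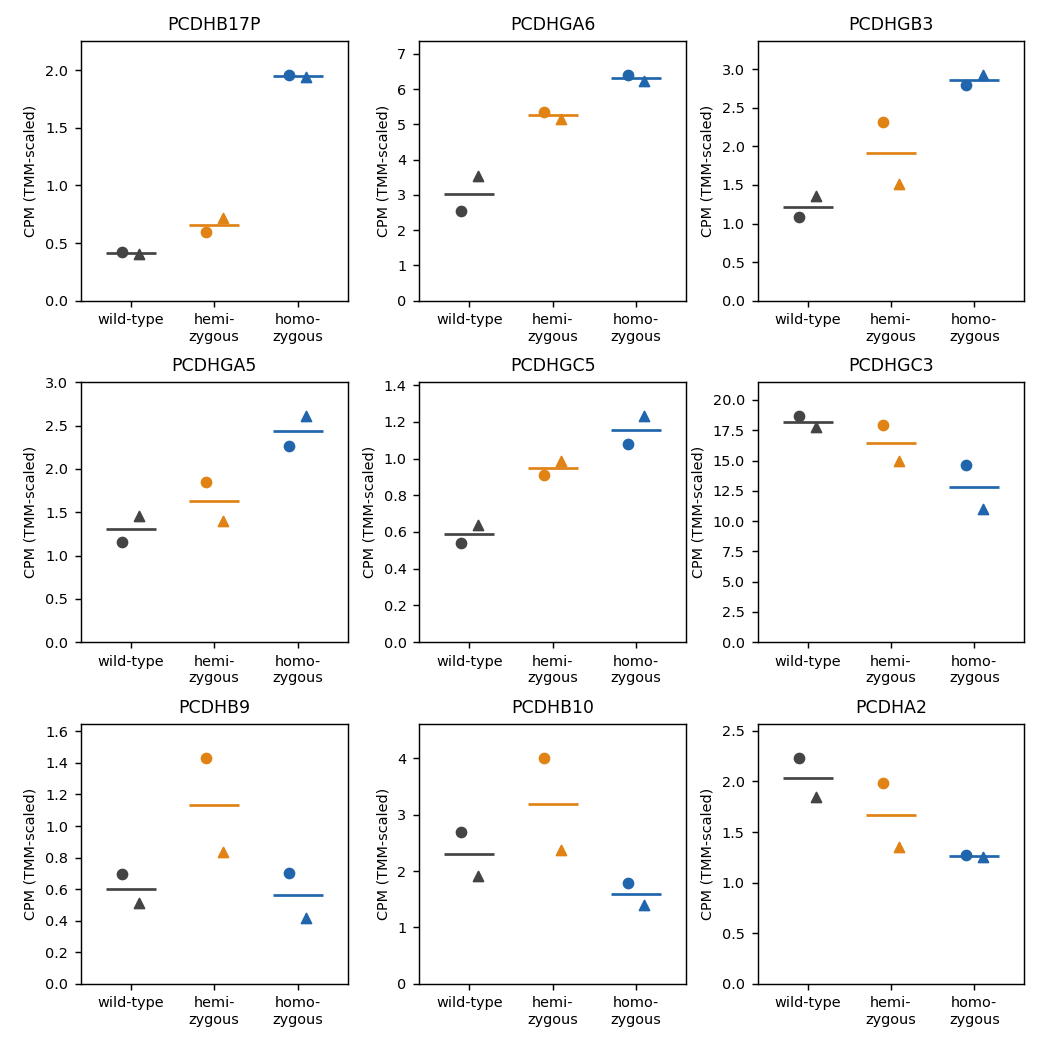
TMM-scaled CPM in each library for 9 named rows, with axes starting at 0, circles for replicate 1, triangles for replicate 2 and a line at the mean of each genotype (n = 2). PCDHB17P, PCDHGA6, PCDHGB3, PCDHGA5 and PCDHGC5 were highest in the 2 homozygous libraries, PCDHGC3 and PCDHA2 lowest there, and PCDHB9 and PCDHB10 highest in hemizygous replicate 1.

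Among gamma rows, PCDHGA6 stood at 6.41 and 6.23 CPM in homozygous libraries against 2.55 and 3.53 in wild-type, a log2 fold change of 1.06 (SE 0.24, unadjusted p 0.00382). Its share of the gamma counts was 2.79% and 4.17% in wild-type cells, 5.17% and 6.42% in hemizygous and 6.25% and 7.80% in homozygous libraries. All 4 mutant libraries lay above both wild-type libraries on either scale. PCDHGB3, a B-type gene next to it, stood at 1.08 and 1.36 CPM in wild-type cells, 2.32 and 1.52 in hemizygous and 2.80 and 2.93 in homozygous libraries, and its log2 fold change was 1.24 (SE 0.32, unadjusted p 0.00652) in homozygous cells. PCDHGA5, on the other side of PCDHGB3, stood at 1.16 and 1.46, 1.85 and 1.40, and 2.27 and 2.61 CPM, and its log2 fold change was 0.90 (SE 0.30, unadjusted p 0.0200). Its homozygous values lay above all others while hemizygous and wild-type overlapped. With PCDHGA7, at 0.713 and 1.23, 1.28 and 1.42, and 1.43 and 1.72 CPM, these formed a run of 4 adjacent rows. It was the longest run in which both homozygous libraries lay above both wild-type and both hemizygous libraries. The backgrounds were 14.2% above wild-type and 11.0% above hemizygous libraries, each counted alone. The background for both at once was not computed, and the run was not tested.

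Below wild-type, PCDHGC3 had a log2 fold change of -0.50 (SE 0.19, unadjusted p 0.0376), and its share of gamma counts was 20.4% and 20.9% in wild-type cells, 17.3% and 18.6% in hemizygous and 14.3% and 13.8% in homozygous libraries. On this scale the 3 genotypes did not overlap. PCDHA2 stood at 2.24 and 1.84 CPM in wild-type cells, 1.98 and 1.35 in hemizygous and 1.28 and 1.26 in homozygous libraries, and its log2 fold change was -0.69 (SE 0.31, unadjusted p 0.0633). PCDHB10 stood at 2.70 and 1.92, 4.02 and 2.37, and 1.78 and 1.40 CPM, and its log2 fold change was -0.54 (SE 0.36, unadjusted p 0.184). In both of these rows the homozygous libraries lay below the other 4. The fold change of PCDHB10 was -0.26 with wild-type replicate 1 left out and -0.37 with homozygous replicate 2 left out. That of PCDHGC3 was -0.31 without homozygous replicate 2.

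Counted over all members, both homozygous libraries lay above both wild-type libraries in 16 rows (background 14.2%), of which 12 were gamma, 3 beta and 1 alpha, and below in 8 (background 13.6%). By array, the median log2 fold change was -0.24 in alpha (2 of 14 rows above 0), -0.05 in beta (6 of 14) and 0.41 in gamma (14 of 22), beside a median of -0.00 for all rows of the table (49.3% above 0). The gamma median was 0.36 between replicate 1 libraries and 0.23 between replicate 2 libraries, and the alpha medians were -0.41 and -0.13. Without homozygous replicate 1 the gamma median was 0.18, and without wild-type replicate 1 the alpha median was 0.06, with 8 of 14 rows above 0, and the beta median 0.14. The difference between the arrays was not tested.

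Within the gamma array the A-type rows stood furthest above wild-type. In homozygous cells 9 of 11 A-type rows lay above 0, at a median of 0.64 on the log2 fold scale. In 8 of them both homozygous libraries lay above both wild-type libraries (background 14.2%). Of 8 B-type rows, the pseudogene PCDHGB8P among them, 4 lay above 0, with a median of 0.12. They ran from -0.65 for PCDHGB1 to 1.24 for PCDHGB3. Both homozygous libraries lay above both wild-type libraries in 3 B-type rows and below in 2 (background 13.6%). In hemizygous cells the medians were 0.38 for A-type rows (9 of 11 above 0) and 0.11 for B-type rows (5 of 8). The difference between the types was not tested.

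Level moved with these differences. Of 15 gamma rows with a mean under 4 CPM, 12 lay above 0 in homozygous against wild-type cells, at a median of 0.64 on the log2 fold scale, and of 7 rows at or above 4 CPM 2 did, with a median of -0.15. Over the whole table the 4082 rows under 4 CPM had a median of 0.07 (57.9% above 0) and the 12117 others -0.02. In hemizygous cells 14 of the 15 low gamma rows lay above 0, with a median of 0.38, beside 0.02 for the 4082 low rows of the table (53.2% above 0). Of the 7 gamma rows at or above 4 CPM, 2 lay above 0 in hemizygous cells, with a median of -0.04. The part of level in the gamma medians was not tested further. In alpha, 0 of 7 rows at or above 4 CPM and 2 of 7 below lay above 0 in homozygous cells.

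**Figure D5:**
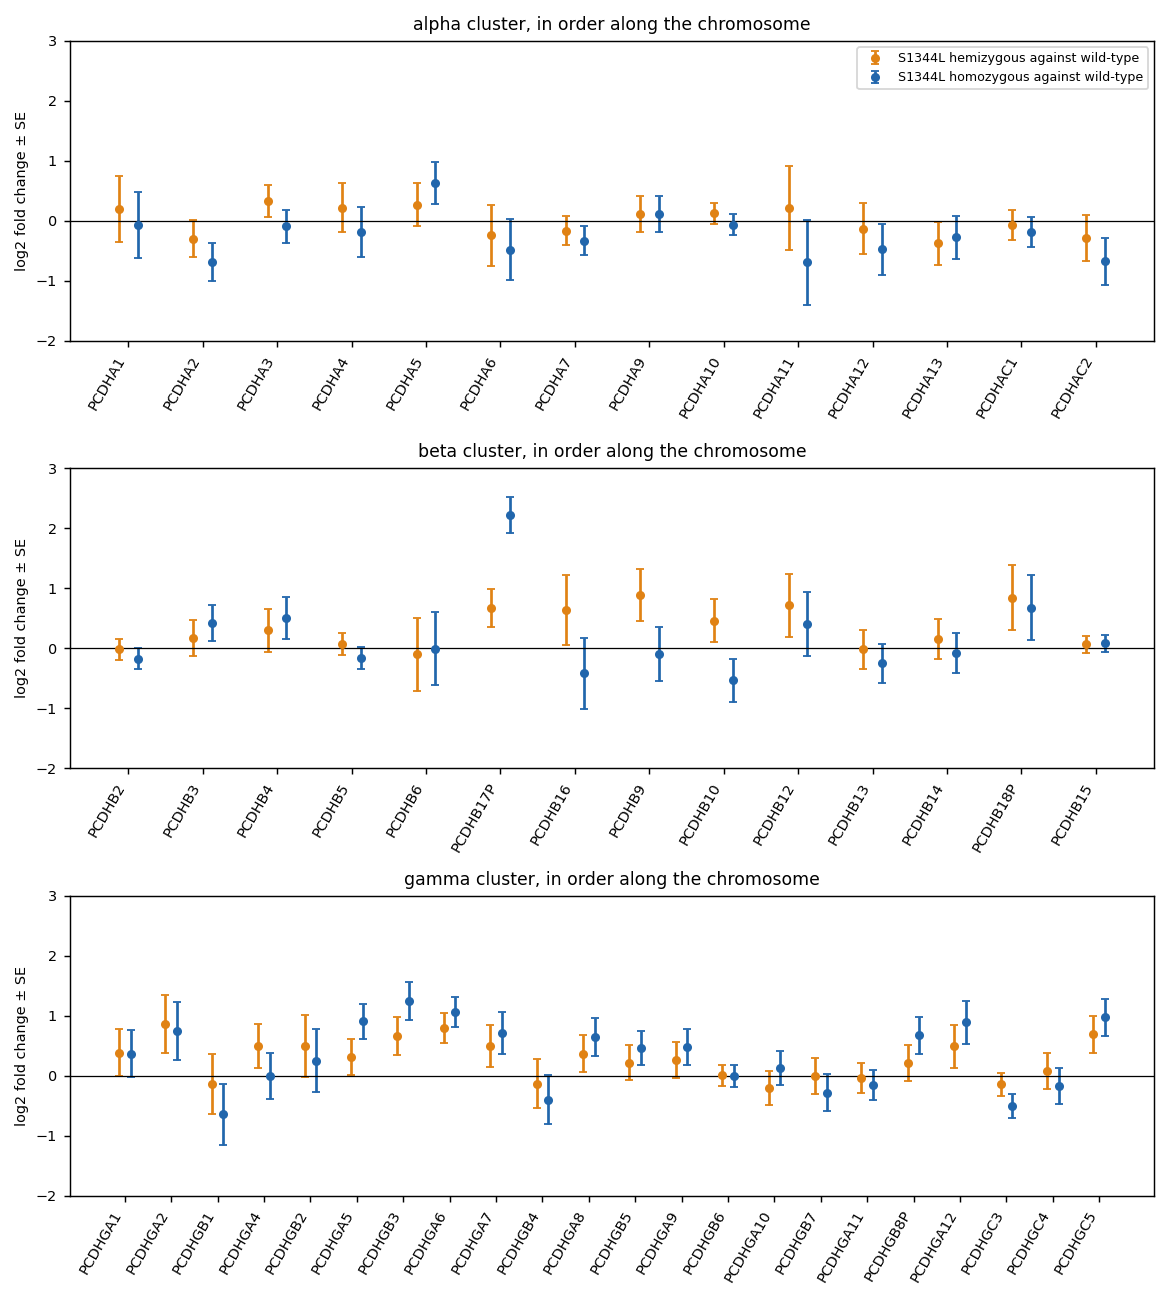
log2 fold change of each row in hemizygous (orange) and homozygous (blue) against wild-type cells, with bars of 1 SE from the edgeR fit, rows in order along chromosome 5. Both comparisons share the wild-type libraries. PCDHB17P stands at 2.22 in homozygous cells, PCDHGA5 to PCDHGA7 lie above 0 in both, and 12 of 14 alpha rows lie below 0 in homozygous cells.

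Taking both mutants as 1 mean against wild-type, 0 members passed edgeR's test (background 0%), 4 had an unadjusted p under 0.05 above wild-type (background 0.877%) and 0 below (1.06%). DESeq2 and limma-voom called 0 members, and 10 and 0 of all rows. The replicate block gave 9 above (background 3.55%) and 3 below (3.91%), and 0 passed. PCDHB17P had a log2 fold change of 1.44 (SE 0.28), PCDHGB3 of 0.94 (SE 0.28) and PCDHGA6 of 0.93 (SE 0.22). As each library was left out, these ran from 1.37 to 1.51, 0.79 to 1.13 and 0.71 to 1.19, in that order. All 4 mutant libraries lay above both wild-type libraries in 8 members (background 4.29%), PCDHB17P and the gamma rows PCDHGA2, PCDHGB3, PCDHGA6, PCDHGA7, PCDHGA8, PCDHGA9 and PCDHGC5, and below in 0 (background 4.58%). The array medians were -0.18 for alpha, 0.09 for beta and 0.37 for gamma. Without wild-type replicate 1 the alpha median was 0.14. With hemizygous replicate 1 left out the gamma median was 0.16. The beta median ran from 0.04 to 0.20 as each library was left out, 0.04 being without wild-type replicate 2.

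The comparison of homozygous with hemizygous cells asked whether the 2 mutant genotypes differ from each other. PCDHB17P stood above and the beta rows PCDHB10 and PCDHB9 below hemizygous cells. No member passed edgeR's test (background 0%), and DESeq2 and limma-voom called 0 members, and 10 and 0 of all rows. At an unadjusted p under 0.05 PCDHB17P lay above (background 0.401%), with a log2 fold change of 1.55 (SE 0.29, unadjusted p 0.00128), and PCDHB10 below (background 0.364%), with -1.0 (SE 0.36, unadjusted p 0.0299). With the replicate block 1 member lay above (background 3.30%) and 6 below (4.90%), PCDHA11, PCDHAC2, PCDHB16, PCDHB9, PCDHB10 and PCDHGC3. As each library was left out, the log2 fold change of PCDHB17P ran from 1.44 to 1.70 and that of PCDHB10 from -1.33 to -0.57. PCDHB9 stood at 0.694 and 0.512 CPM in wild-type cells, 1.43 and 0.835 in hemizygous and 0.705 and 0.418 in homozygous libraries, so the hemizygous pair lay above the other 4. PCDHGA5 and PCDHGB3 lay above, by 0.59 (SE 0.29) and 0.58 (SE 0.31) on the log2 scale. With hemizygous replicate 1 left out PCDHGB3 stood at 0.92, PCDHB9 at -0.56 and PCDHB10 at -0.57, and with hemizygous replicate 2 left out PCDHGB3 stood at 0.30. PCDHB9 was at -0.67 without homozygous replicate 2.

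Both homozygous libraries lay above both hemizygous libraries in 9 members (background 11.0%), 8 of them gamma rows, and below in 7 (background 10.4%), 4 of them alpha rows. Array medians were -0.26 for alpha (3 of 14 rows above 0), -0.20 for beta (5 of 14) and 0.10 for gamma (11 of 22). The alpha median was 0.04 without hemizygous replicate 1, where 9 of 14 alpha, 9 of 14 beta and 19 of 22 gamma rows lay above 0, and -0.68 without hemizygous replicate 2, and the beta median -0.50 without hemizygous replicate 2. The gamma median was 0.24 without hemizygous replicate 1, -0.01 without hemizygous replicate 2, 0.01 without homozygous replicate 1 and 0.18 without homozygous replicate 2.

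Genes around the arrays in function were set beside them. Non-clustered protocadherins, adhesion proteins encoded elsewhere, had rows for 9 of 13 listed genes. None passed edgeR's test in any comparison (background 0%), and 0 had an unadjusted p under 0.05 in hemizygous or in homozygous against wild-type cells. The background at that p was 0.457% above and 0.414% below in hemizygous cells, and 1.19% and 1.50% in homozygous cells. Their median log2 fold change was -0.06 in hemizygous and -0.22 in homozygous cells, where 2 of 9 lay above 0. PCDH18 stood at 57.1 and 42.3 CPM in wild-type and at 35.0 and 34.0 in homozygous libraries, a log2 fold change of -0.53 (SE 0.24). Their replicate gaps had medians of 0.19, 0.62 and 0.52 in wild-type, hemizygous and homozygous cells, so replicate 1 lay above here too.

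All 22 listed genes of promoter choice and chromatin at the arrays had rows, with medians of 0.05 in hemizygous and -0.04 in homozygous against wild-type cells. In either mutant 0 passed (background 0%) or had an unadjusted p under 0.05. The background at that p was 0.457% above and 0.414% below in hemizygous cells, and 1.19% and 1.50% in homozygous cells. A count of 0 among 22 rows is near these shares. CTCF stood at 99.0 and 97.4 CPM in wild-type cells, 104 and 90.8 in hemizygous and 105 and 84.7 in homozygous libraries, and the genotypes overlapped. SMCHD1, a chromatin protein known to act at the clustered protocadherins, stood at 124 and 85.2, 127 and 76.1, and 80.0 and 68.4 CPM, and its log2 fold change was -0.49 (SE 0.28) in homozygous against wild-type cells. The homozygous values lay below wild-type and overlapped the hemizygous pair. All 24 listed trafficking, shedding and signalling partners had rows, with 0 called (background 0%) and medians of -0.04 and -0.09, and 3 of 24 lay above 0 in homozygous cells.

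Clustered protocadherins are best known from neurons. The summed neural markers, given above, lay above wild-type in both hemizygous libraries and overlapped wild-type in the homozygous ones. Much of that sum was SYT1, at 138 and 100 CPM in wild-type cells, 172 and 122 in hemizygous and 141 and 114 in homozygous libraries. Its genotypes overlapped. Of the 10 neural genes, 8 lay above 0 in hemizygous and 7 in homozygous against wild-type cells. In hemizygous cells 3 of the 10, ZIC1, FABP7 and DCX, had an unadjusted p under 0.05 above wild-type (background 0.457% of all rows). In homozygous cells ZIC1 and FABP7 did (background 1.19%). In either comparison 0 of the 10 lay below at that p (background 0.414% and 1.50%), and 0 passed edgeR's adjusted threshold (background 0%). The fibroblast and stroma list had a median log2 fold change of 0.02 in hemizygous cells, with 4 of 8 genes above 0, and of -0.40 in homozygous cells, with 1 of 8 above 0. At an unadjusted p under 0.05, PDGFRA lay above wild-type in hemizygous cells, at 0.95 (SE 0.37), and PDGFRB below in homozygous cells, at -0.85 (SE 0.33, background 1.50%), and 0 passed. The list had replicate gaps with medians of 0.35, 0.66 and 0.02. The part of either list in the protocadherin values was not tested.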

How the data were processed

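The data were gene-level counts from 6 Ago2 iCLIP libraries of H1 cells, 2 per Dicer genotype, grouped by their titles. The authors deposited raw counts per gene, aligned to hg38 per the submitters' processing notes. Not given in the sources used here are the aligner, the counter, its annotation and use of strand, and whether molecular identifiers were collapsed. The protocol's IgG controls were not used here. Members and gene lists were chosen with earlier results of these data known.

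All 16199 rows passed edgeR's filterByExpr and were fitted together in edgeR 4.0.16 (R 4.3.3) with TMM scaling, 3 genotype means, the quasi-likelihood test and Benjamini-Hochberg adjustment over all rows. Fold changes are log2. Alternatives were other scalings (RLE, upper quartile, library size), no filter, at least 20 counts in 2 libraries, DESeq2 1.42.0, limma-voom (limma 3.58.1), only the groups compared, a replicate block, and leaving out each library. The fit was tested on simulated data. Rows named were those with the most counts per array, C-type and pseudogene rows, up to 3 rows per direction and comparison with the smallest p and no overlap, and the 3 widest replicate gaps each way. Beyond this rule, PCDHGA7, PCDHGA12 and others in short lists were named after their values were seen. Same-numbered replicates deviated together over all rows (correlations 0.741, 0.357 and 0.476 between genotype pairs, each over 0.1). The numbers, taken from the titles, were therefore used as a block in an alternative fit. The main fit was not paired, and the SE and p-values of rows are without the block unless it is named. Promoters came from RefSeq GRCh38.p14.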

Additional observations from a re-analysis of the deposited data

How the results depend on the processing

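At edgeR's adjusted threshold the count of members called stayed 0 in all 4 comparisons under every scaling, filter, left-out library and the replicate block, and under limma-voom. DESeq2 was the exception and called 1 member in homozygous against wild-type cells, PCDHB17P, among 10 rows of the whole table. Its log2 fold change was 2.22 there too. The replicate block changed no call of a member. Members at an unadjusted p under 0.05 numbered 4, 15, 12 and 7 with it, against 1, 7, 4 and 2 without it. The order is hemizygous cells, homozygous cells and the mean of both against wild-type, then homozygous against hemizygous cells. The share of all rows at that p rose with the block too. Above, it went from 0.457%, 1.19%, 0.877% and 0.401% to 2.05%, 5.21%, 3.55% and 3.30%, in the same order. Below, it went from 0.414%, 1.50%, 1.06% and 0.364% to 1.75%, 6.78%, 3.91% and 4.90%. Other scalings moved the median of all rows by at most 0.03. Fold changes were recomputed for the rows with the smallest p in each comparison, and none of these reversed. Those of other named genes were not recomputed. Leaving out each library in turn moved the array medians most. Against wild-type, in hemizygous cells the alpha median ranged from -0.30 to 0.19, the beta median from -0.12 to 0.51 and the gamma median from 0.048 to 0.39. In homozygous cells the alpha median ranged from -0.45 to 0.057, the beta median from -0.085 to 0.14 and the gamma median from 0.18 to 0.53. For the mean of both mutants the alpha median ranged from -0.38 to 0.14, the beta median from 0.039 to 0.20 and the gamma median from 0.16 to 0.46. In homozygous against hemizygous cells the alpha median ranged from -0.68 to 0.044, the beta median from -0.50 to 0.059 and the gamma median from -0.0068 to 0.24. A fit on only the groups compared equals the one reported for the mean of both mutants and was not run again. Depth limits rows such as PCDHB17P, at 16 to 89 counts.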
